A study of Homo sapiens with 8 samples.

Results

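The comparison described here is the addition of LY2784544, a JAK2 inhibitor, to GRN163L, a telomerase inhibitor, in HEL cells, a human erythroleukaemia line. It rests on 4 of the 8 arrays in the study, 2 from cells exposed to both agents and 2 from cells exposed to GRN163L alone. Members were chosen by their labels. Each group holds 1 array from experiment 1 and 1 from experiment 2, made separately. Cells had 20 µM GRN163L alone, or GRN163L with LY2784544, for 48 h. The labels state 0.5 µM for LY2784544 alone and repeat neither dose for the arm with both agents. The other 4 arrays hold cells with DMSO, the control, and cells with LY2784544 alone, 2 of each. All 8 cultures are of the same line, so the results describe 1 line at 1 time. Levels and changes below are log2 RMA signals per probe set, and a change of 1 is a doubling or halving of signal. Tests covered 19181 probe sets annotated to exactly 1 gene, which stand for 17958 genes.

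JAK2 is a tyrosine kinase that sits on the receptors for erythropoietin, thrombopoietin and other blood cell cytokines. When it is active it phosphorylates STAT proteins, which enter the nucleus and switch on genes for growth and survival together with inhibitors of the pathway itself, such as the SOCS and CISH proteins. HEL cells carry an activated JAK2 and therefore signal without cytokine. They have erythroid features and can make megakaryocyte and platelet proteins. Telomerase keeps chromosome ends long by copying the template in its RNA subunit, TERC. GRN163L is a lipid-linked oligonucleotide that pairs with that template.

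Erythroid markers were present: 7 of 7, among them GATA1, KLF1 and TFRC, had a mean level of at least 6 on the control arrays, with a median of 10.5. Of 6 megakaryocyte markers, 4 reached that level. Among markers of other cells, CD2 of 6 T cell markers and LYZ of 4 monocyte markers reached it, and none of 4 B cell, 5 fibroblast or 5 liver markers did. On the first principal component, which held 41.3% of the variance, the combination array of experiment 1 stood at 42.4 and the LY2784544 array of experiment 1 at 25.8. The LY2784544-exposed arrays of experiment 2 came next, at 11.5 with the combination and -0.7 with LY2784544 alone. The arrays without LY2784544 lay between -26.4 and -9.4, so the component ordered the arrays by exposure to LY2784544. Median signal over the 1-gene probe sets was 6.08 and 6.09 on the GRN163L arrays and 5.93 and 5.99 on the combination arrays, a shift of -0.13. Olfactory receptor genes, which blood cells do not normally express, had median levels of 3.32 and 3.30 with GRN163L against 3.53 and 3.37 with the combination. With the arrays set to 1 median, limma called 45 probe sets, and 41 of the 55 called without that step stayed called. Beyond refits with other normalizations, the part of these shifts in the results below was not tested.

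On adding LY2784544 to GRN163L, more of the transcripts that passed the test were lower than higher. With limma and Benjamini-Hochberg adjustment, 55 of 19181 probe sets were called at an adjusted p below 0.05, which is 0.287%. Of these, 47 were lower with the combination (0.245%) and 8 were higher (0.0417%). They stand for 45 genes that fell and 6 that rose. The falls included PRG2, ANGPT2, GSDME, PRF1, ADA, ETV4, ERO1A and SOCS3, and the rises included the platelet chemokines PPBP and PF4 and the hyaluronan receptor LYVE1. RNA came from whole cultures, in which a change in the share of cells that express a gene and a change in RNA per cell cannot be told apart. Sizes ran from 0.85 to 3.16 on the log2 scale, with a median of 1.34. Every one of the 55 moved the same way in each experiment, and in none did the GRN163L and combination arrays overlap. Over all 19181 probe sets, the groups did not overlap in 43.6%. Changes in experiments 1 and 2 correlated across the 19181 probe sets with a Pearson r of 0.53 and a Spearman rho of 0.47. That is a description over probe sets, which are not independent.

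With the experiment as a block, 181 probe sets were called (0.944%), 27 higher and 154 lower, and all 55 were among them. Without the combination array of experiment 1, limma called 0 probe sets, the smallest adjusted p was 0.0514, and 1434 had an unadjusted p below 0.05. Without the GRN163L array of experiment 1 it called 0, with 2203 at an unadjusted p below 0.05, and without that of experiment 2 it called 1. Without the combination array of experiment 2 it called 19, of which 8 were among the 55. Of those 19, 10 were higher and 9 lower, so the majority of lower calls did not hold without that array. In each of these settings the sign of all 55 changes stayed. That outcome was fixed, since their groups do not overlap and the block leaves each mean change as it was. With 2 arrays a group, an exact two-sided permutation test of a single gene cannot go below 0.333, so each call draws on the spread shared over genes and over the 4 groups.

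**Figure D1:**
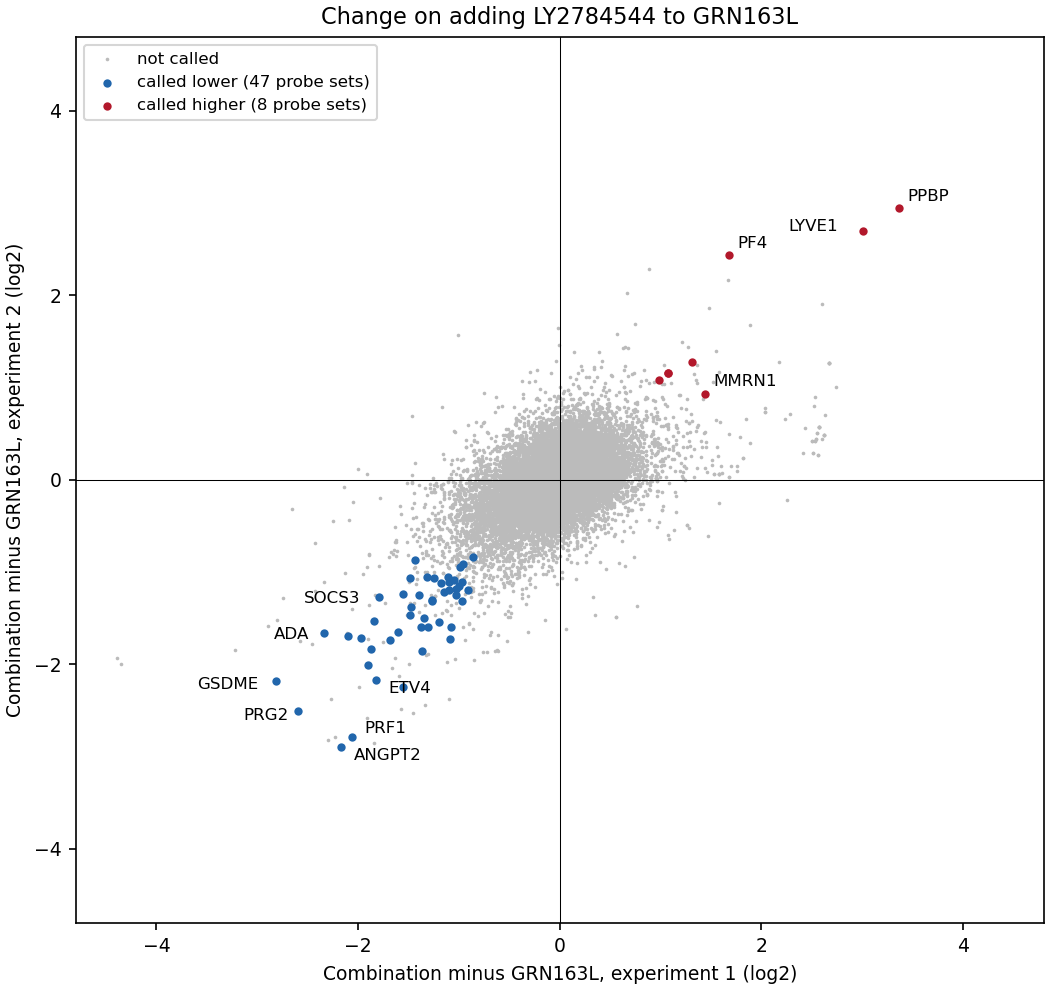
Change in log2 signal (combination minus GRN163L) of each 1-gene probe set in experiment 1 (horizontal) and experiment 2 (vertical). Blue points are the 47 probe sets called lower and red points the 8 called higher, and every called probe set lies in the quadrant where both experiments have the same sign.

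SOCS3 and PIM1 fell among the targets and feedback inhibitors of JAK-STAT signalling. Of the 18 genes listed for this group, 2 fell and 0 rose by the test, and 13 (72.2%) were lower in both experiments, against 34.6% of all genes. Their median change was -0.31, against -0.01 over all genes. SOCS3, which blocks JAK kinases as part of a feedback loop, read 7.02 and 6.85 on the GRN163L arrays and 5.23 and 5.58 on the combination arrays. Both combination arrays were below both GRN163L arrays, and the mean fell by 1.53 (SE 0.17, limma adjusted p = 0.0225). The control arrays stood higher still at 8.29 and 8.41, and the LY2784544 arrays at 7.35 and 7.10, so the combination gave the lowest SOCS3 of the 4 groups. PIM1, a survival kinase induced by STAT5, went from 11.86 and 11.67 to 10.81 and 10.58 and fell by 1.07 (SE 0.14, adjusted p = 0.0316).

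ID1, an inhibitor of differentiation factors, read 9.76 and 9.72 with GRN163L against 8.31 and 8.76 with the combination. IRF1, a transcription factor of the interferon response, read 8.32 and 8.54 and then 7.30 and 7.69. Their mean changes of -1.21 and -0.94 were not called without the block (limma adjusted p = 0.103 and 0.132) and were called with it (0.0252 and 0.0246). In all, 16 named genes were called with the block and not without it. For 9 of them the block was the 1 alternative that called them, and 7 were called in others too, with adjusted p between 0.00999 and 0.588 over the alternatives of the 16. CISH, the prototype STAT5 feedback gene, had a change of -0.53 and SOCS1 one of -0.60, neither of them called, and PIM3 had a change of 0.07. With the block 4 of the 18 fell. Without the combination array of experiment 1 the median change of the group was -0.45.

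Genes for the parts of the pathway itself had a median change of -0.05 over 21 genes, and that sign turned to 0.08 when the arrays were set to 1 median. By limma 0 of the 21 were called, and 5 (23.8%), each of them lower, had an unadjusted p below 0.05. Over all 17958 genes, 8.82% were lower at that threshold and 4.42% higher. The lowest was IL2RB, a chain of the interleukin-2 and interleukin-15 receptors, at 6.11 and 6.57 with GRN163L against 4.36 and 4.81 with the combination. Its arrays did not overlap between the groups, and the change of -1.76 had an adjusted p of 0.0742 without the block and 0.0135 with it. JAK3, the kinase that serves those receptors, had a change of -0.89, and STAT5B, a main STAT of erythroid cells, one of -0.46, neither of them called.

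STAT dimers bind the letters TTCNNNGAA, which read the same way on both strands. This motif was searched in RefSeq promoters of build GRCh38.p14, each of 300 bases around a gene's start, on either strand. It was found in 7.88% of 27305 promoters. Of the 45 genes that fell, 30 had a promoter in the table and 4 of these held the motif (13.3%), namely ADA, IFITM1, NIBAN2 and SMAGP. Of the 6 genes that rose, 4 had a promoter and 1 of these, TRIM40, held the motif. So few promoters cannot tie the motif to falls rather than rises. Of the 13 JAK-STAT targets with a promoter, CISH, BCL6, IRF1 and LRG1 held it (30.8%). A match describes letters and not a bound site. The cyclic-AMP motif TGACGTCA was in 1.98% of all promoters and in 0 of the 30. The promoters of CISH, ADA and IFITM1 are printed to show the motif, in capitals, at a textbook STAT target and at the 2 falls of largest size that held it. They lie at chr3:50611725-50612024 on the minus strand, chr20:44651650-44651949 on the minus strand and chr11:313790-314089 on the plus strand, and are written 5′ to 3′ along the gene.
CISH: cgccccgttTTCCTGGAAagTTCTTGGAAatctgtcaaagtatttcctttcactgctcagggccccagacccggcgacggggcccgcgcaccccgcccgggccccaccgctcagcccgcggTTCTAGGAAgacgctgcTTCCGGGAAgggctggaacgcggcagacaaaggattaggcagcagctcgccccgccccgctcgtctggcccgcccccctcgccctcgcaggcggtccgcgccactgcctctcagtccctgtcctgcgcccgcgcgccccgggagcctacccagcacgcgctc
ADA: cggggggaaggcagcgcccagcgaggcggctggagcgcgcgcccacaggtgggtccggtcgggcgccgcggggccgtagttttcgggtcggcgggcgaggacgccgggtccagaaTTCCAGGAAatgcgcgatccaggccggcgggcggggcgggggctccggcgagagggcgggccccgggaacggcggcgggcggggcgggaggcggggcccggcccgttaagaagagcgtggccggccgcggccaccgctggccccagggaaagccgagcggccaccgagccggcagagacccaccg
IFITM1: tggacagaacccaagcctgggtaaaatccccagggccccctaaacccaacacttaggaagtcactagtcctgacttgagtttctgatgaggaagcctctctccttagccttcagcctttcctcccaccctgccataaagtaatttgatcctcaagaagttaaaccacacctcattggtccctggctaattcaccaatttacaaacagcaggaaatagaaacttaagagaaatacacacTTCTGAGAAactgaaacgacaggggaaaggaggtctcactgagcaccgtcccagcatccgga

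CISH held the motif at 4 places, TTCCTGGAA, TTCTTGGAA, TTCTAGGAA and TTCCGGGAA, ADA once as TTCCAGGAA and IFITM1 once as TTCTGAGAA. ADA, the enzyme that deaminates adenosine and deoxyadenosine, read 7.74 and 7.85 with GRN163L against 5.40 and 6.19 with the combination. It fell by 2.0 (SE 0.24, limma adjusted p = 0.0249), and the groups did not overlap. IFITM1, an interferon-induced membrane protein that hinders virus entry, read 11.12 and 10.91 and then 9.28 and 9.38. The mean fell by 1.69 (SE 0.17, adjusted p = 0.0225). IFITM1 was the 1 gene called among 27 interferon-stimulated genes measured, whose median change was -0.25. Of these 27, 17 (63.0%) were lower in both experiments, against 34.6% of all genes. IFITM3 had a change of -1.23 and MX2 one of -0.82, neither of them called.

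Among genes that respond to the ERK kinases, ETV4 fell. Of 15 feedback and ETS genes measured, 1 fell and 0 rose by the test. Lower in both experiments were 13 (86.7%, against 34.6% of all genes), and the median change was -0.64. The gene that fell was ETV4, an ETS transcription factor switched on by ERK, at 7.32 and 7.11 with GRN163L against 5.50 and 4.94 with the combination. Its mean fell by 2.0 (SE 0.25, limma adjusted p = 0.0266). On the control arrays ETV4 read 8.16 and 8.55 and with LY2784544 alone 8.26 and 7.78, a change of -0.34 that was not called (adjusted p = 0.666). The difference between those changes was -1.66 and was not called either (adjusted p = 0.582). ETV5, the near relative of ETV4, had a change of -1.18 and DUSP6, a phosphatase that switches ERK off, one of -0.77, neither of them called.

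In the NF-kB and inflammatory group, 1 of 17 genes fell and 0 rose, 2 fell with the block, and the median change was -0.45. The gene was BCL3, a nuclear IkB protein that partners NF-kB, at 7.72 and 7.57 with GRN163L against 6.24 and 6.19 with the combination. BCL3 fell by 1.43 (SE 0.14, limma adjusted p = 0.0225). On the control arrays it read 8.70 and 8.85, above both GRN163L arrays, and with LY2784544 alone 6.54 and 6.34. TNFRSF9, an activation receptor of lymphocytes, read 5.0 and 5.16 and then 4.31 and 4.40, and its change of -0.73 was called with the block (adjusted p = 0.0454) and not without it (0.111). The chemokine genes CXCL8 and CCL3 had changes of 0.71 and 0.59, neither of them called.

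Among genes that cells raise when oxygen is short, ERO1A fell. Of 16 such genes measured outside glycolysis, all 16 had a lower mean and 15 (93.8%) were lower in both experiments, against 34.6% of all genes. The median change was -0.80, with -0.98 in experiment 1 and -0.68 in experiment 2. By the test 1 fell and 0 rose, and with the block 3 fell. ERO1A, an oxidase that helps proteins form disulfide bonds in the endoplasmic reticulum, read 8.18 and 8.30 with GRN163L against 6.08 and 6.61 with the combination. It fell by 1.90 (SE 0.22, limma adjusted p = 0.0249), which is a 3.72-fold lower signal.

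P4HA1, a subunit of the enzyme that hydroxylates collagen prolines, read 9.63 and 9.12 with GRN163L against 7.05 and 7.37 with the combination. BHLHE40, a transcription repressor, read 10.05 and 9.10 and then 7.94 and 7.44. For both genes the groups did not overlap. Their changes of -2.17 and -1.89 had adjusted p = 0.0605 and 0.0907 without the block and 0.0363 and 0.0126 with it. Over 18 alternatives P4HA1 was called in 6 and BHLHE40 in 1, the block. BNIP3, which marks mitochondria for removal, had a change of -2.16 that was called in neither fit (adjusted p = 0.0907 without the block). VEGFA, the vessel growth factor, had a change of -0.15. Leaving out the combination array of experiment 1 gave a group median of -0.77.

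Genes of glycolysis and glucose uptake had a median change of -0.51 over 20 genes measured. All 20 had a lower mean, and 18 (90%) were lower in both experiments, against 34.6% of all genes. The medians were -0.82 in experiment 1 and -0.28 in experiment 2, so the size differed between the experiments. By limma 0 of the 20 were called, 12 (60%, against 8.82% of all genes) were lower at an unadjusted p below 0.05, and 2 fell with the block. ALDOC, a glycolytic aldolase, read 11.26 and 10.65 with GRN163L against 8.37 and 9.07 with the combination, and HK2, the hexokinase that starts glycolysis, read 10.22 and 9.65 and then 8.27 and 8.63. The changes of -2.24 and -1.49 had adjusted p = 0.0742 and 0.0832 without the block and 0.0418 for each with it. SLC2A1, the main glucose importer, had a change of -1.01, and GAPDH one of -0.15. The group's median was -0.36 without the combination array of experiment 1.

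The hypoxia motif ACGTG, the core letters bound by hypoxia-inducible factors, was searched on both strands of the same promoters, where it reads CACGT on the opposite strand. These letters are also part of the E-box CACGTG, and the search did not separate the E-box from other matches. It was found in 21.6% of all 27305 promoters. Of the 15 hypoxia-induced genes with a promoter it was in 10 (66.7%), of the 21 glycolysis genes in 8 (38.1%), and of the 30 genes that fell in 11 (36.7%). Of the 4 genes that rose and had a promoter, 1 held it, namely MMRN1. The promoters of ERO1A, which fell, and P4HA1, which had the lowest mean change of the hypoxia group, show the motif in capitals. They lie at chr14:52695509-52695808 and chr10:73096817-73097116, both on the minus strand.
ERO1A: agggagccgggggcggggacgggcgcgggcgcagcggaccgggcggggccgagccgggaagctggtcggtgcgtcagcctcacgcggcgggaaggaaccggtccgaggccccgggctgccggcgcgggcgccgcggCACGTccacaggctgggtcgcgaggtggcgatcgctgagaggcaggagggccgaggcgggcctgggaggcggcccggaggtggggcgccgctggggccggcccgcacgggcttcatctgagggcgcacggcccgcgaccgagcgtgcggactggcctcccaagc
P4HA1: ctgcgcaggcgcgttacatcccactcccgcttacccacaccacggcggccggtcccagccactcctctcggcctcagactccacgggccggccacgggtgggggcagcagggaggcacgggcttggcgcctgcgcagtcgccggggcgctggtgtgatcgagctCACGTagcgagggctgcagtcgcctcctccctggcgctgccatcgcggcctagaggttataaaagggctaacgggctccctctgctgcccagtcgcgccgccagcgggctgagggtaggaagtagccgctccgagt

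Among granule and mast cell genes, PRG2 fell. PRG2, the major basic protein of eosinophil granules, had the largest fall of all called genes. It read 9.84 and 9.99 on the control arrays and 10.06 and 9.44 on those with LY2784544 alone. GRN163L arrays read 9.41 and 9.63, against 6.81 and 7.12 on the combination arrays. The combination arrays lay below all 6 other arrays. PRG2 fell by 2.56 (SE 0.22, limma adjusted p = 0.0134), a 5.88-fold lower signal, while its change with LY2784544 alone was -0.17 (adjusted p = 0.829). The difference between those changes was -2.39 and was not called (adjusted p = 0.142).

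CPA3, a mast cell carboxypeptidase, read 9.35 and 10.25 with GRN163L against 7.08 and 7.88 with the combination, and KIT, the stem cell factor receptor that mast cells need, read 9.88 and 10.47 and then 7.42 and 8.69. The arrays of the groups did not overlap for either gene. The changes of -2.32 and -2.12 had adjusted p = 0.0697 and 0.0983 without the block and 0.0418 and 0.0458 with it. Of 13 genes listed for mast cells, basophils and eosinophils, 1 fell and 0 rose, and 3 fell with the block. Lower in both experiments were 7 (53.8%), against 34.6% of all genes. The median change was -0.11, and it became 0.02 when the arrays were set to 1 median. CMA1 and EPX, which encode mast cell chymase and eosinophil peroxidase, had changes of -0.05 and -0.06, neither of them called.

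ANGPT2, GSDME and PRF1 were among the called genes with the largest falls. ANGPT2, which destabilises blood vessels through the TIE2 receptor, read 6.57 and 7.50 with GRN163L against 4.40 and 4.60 with the combination, a change of -2.54 (SE 0.35, limma adjusted p = 0.0396). GSDME, which forms membrane pores when cut by caspase-3, read 6.95 and 6.56 and then 4.14 and 4.38, a change of -2.50 (SE 0.21, adjusted p = 0.0134). PRF1, the pore protein of cytotoxic lymphocytes, read 7.05 and 7.25 and then 4.99 and 4.46, a change of -2.43 (SE 0.26, adjusted p = 0.0225). In each of these genes the groups stood apart. All 3 also fell with LY2784544 alone, where the changes were -2.34, -2.30 and -2.27.

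STAC, an adaptor protein of calcium channels, read 7.30 and 7.47 with GRN163L against 5.40 and 5.46 with the combination and fell by 1.96 (SE 0.15, limma adjusted p = 0.0107). THY1, a surface glycoprotein, read 8.82 and 9.03 and then 7.27 and 6.79 and fell by 1.90. DOK4, an adaptor of receptor tyrosine kinases, went from 7.71 and 7.83 to 5.74 and 6.12 and fell by 1.84. ITGAL, the alpha chain of the leukocyte integrin LFA-1, went from 6.01 and 6.53 to 4.41 and 4.88 and fell by 1.63 with an adjusted p of 0.0475, close to the threshold. All 4 also fell with LY2784544 alone. ANXA6, a calcium-dependent membrane-binding protein, read 7.93 and 8.15 and then 6.06 and 6.32 and fell by 1.85, while its change with LY2784544 alone was -0.43 and was not called. The difference between those changes was -1.42 and was not called either (limma adjusted p = 0.79).

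Of the 17 lymphocyte genes measured, PRF1 was the 1 called, 2 fell with the block, and 10 of the 17 had a higher mean with the combination. CD79A, a chain of the B cell receptor complex, read 6.44 and 6.76 with GRN163L against 4.95 and 5.42 with the combination, and its change of -1.42 was called with the block (adjusted p = 0.0135) and not without it (0.0832). The T cell receptor complex gene CD3E had group means of 3.31 with GRN163L and 3.62 with the combination, and the B cell gene MS4A1 had 3.40 and 3.70, all under a level of 6.

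The remaining falls included EZR, CYRIA, VAV2, LEF1, CD200R1 and SAMSN1, named here after their values were seen. EZR, which ties membrane proteins to actin, fell by 1.40, CYRIA, a brake on actin branching through RAC1, fell by 1.41, and VAV2, a guanine nucleotide exchange factor, fell by 1.29. LEF1, a transcription factor of the WNT pathway, fell by 1.29 from a group mean of 8.96 to 7.67, while its change with LY2784544 alone was -0.22 and was not called. The interaction of LEF1 was -1.08 with a limma adjusted p of 0.463, so a difference between those changes was not called. CD200R1, an inhibitory receptor of myeloid cells, and SAMSN1, an adaptor that dampens B cell signals, had changes of -1.19 and -1.14 and also fell with LY2784544 alone.

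**Figure D2:**
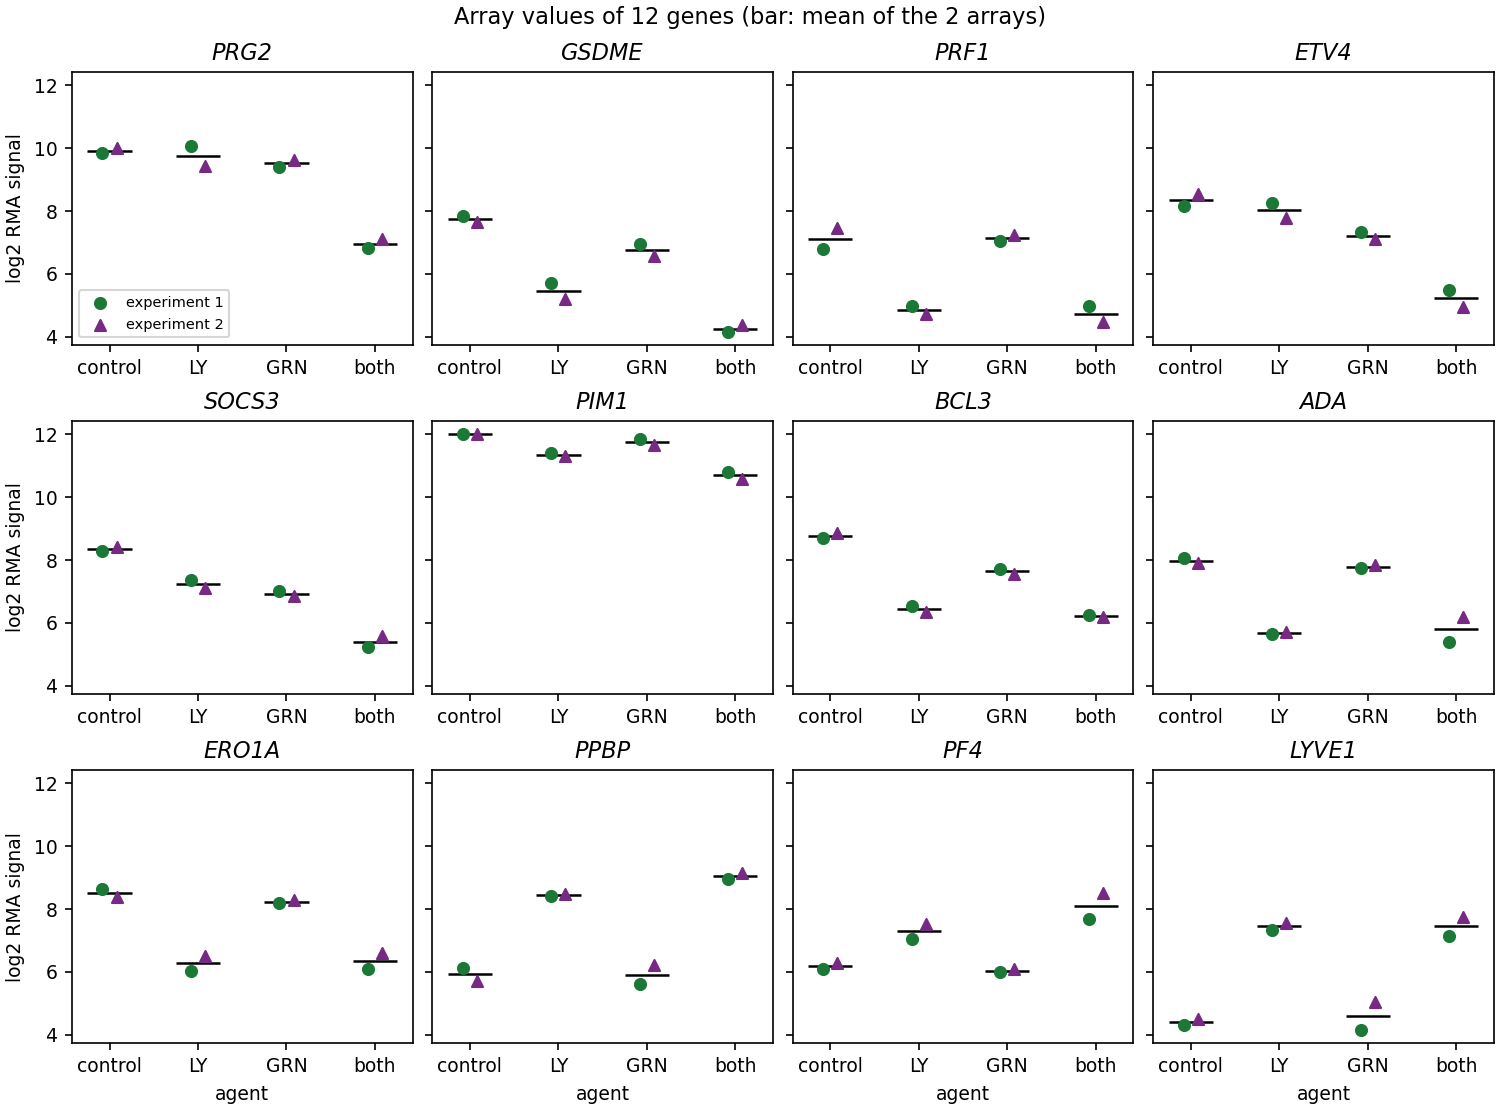
Log2 RMA signal of 12 genes on each of the 8 arrays, by group (control, LY2784544, GRN163L, both agents). Circles are experiment 1, triangles experiment 2 and bars the mean of the 2 arrays, and in each panel the arrays of both agents lie wholly to a single side of the GRN163L arrays.

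The largest rise of all called genes was that of PPBP, a platelet gene. PPBP, the platelet basic protein from which the chemokine CXCL7 is cut, read 5.61 and 6.21 with GRN163L against 8.97 and 9.16 with the combination. It rose by 3.16 (SE 0.22, limma adjusted p = 0.0107), an 8.91-fold higher signal. PF4, platelet factor 4, went from 6.01 and 6.08 to 7.69 and 8.52 and rose by 2.06 (SE 0.27, adjusted p = 0.0316). MMRN1, a large protein stored in platelet granules, went from 8.17 and 8.53 to 9.61 and 9.46 and rose by 1.19 (SE 0.16, adjusted p = 0.037). In all 3 genes every combination array was above every GRN163L array. With LY2784544 alone PPBP also rose, by 2.52 (limma adjusted p = 0.00541). PF4 and MMRN1 had changes of 1.10 and 0.615 there, neither of them called.

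Of 22 megakaryocyte and platelet genes measured, 3 rose and 0 fell, and 16 (72.7%) were higher in both experiments, against 29.9% of all genes. The median change was 0.42, with 0.33 in experiment 1 and 0.54 in experiment 2. With the block 5 rose. CLEC1B, the podoplanin receptor of platelets, read 4.10 and 4.46 with GRN163L against 5.40 and 5.17 with the combination. Its change of 1.01 had an adjusted p of 0.067 without the block and 0.0418 with it. ITGA2B, the platelet fibrinogen receptor chain, had a change of 0.08. GP9, part of the von Willebrand factor receptor, had one of -0.04, and neither gene was called. Control means were 11.21 for ITGA2B, 8.96 for GP9 and 8.67 for MMRN1. Whether the starting level bears on these changes was not tested. SPARC had a change of -0.80. The median was 0.53 without the combination array of experiment 1.

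LYVE1, a hyaluronan receptor of lymphatic vessels and some macrophages, read 4.15 and 5.04 with GRN163L against 7.16 and 7.74 with the combination. LYVE1 rose by 2.86 (SE 0.30, limma adjusted p = 0.0225). With LY2784544 alone it also rose, by 3.04 (limma adjusted p = 0.00833). TRIM40, a ubiquitin ligase of the TRIM family, read 6.99 and 6.98 and then 8.30 and 8.26 and rose by 1.30 (SE 0.16, adjusted p = 0.0278). It has 3 probe sets, which rose by 1.12 to 1.30, and 2 of them hold equal values on all 8 arrays, so they are not separate evidence. With LY2784544 alone TRIM40 also rose, by 1.07 at its probe set of highest mean (limma adjusted p = 0.031). AKR1C2, a steroid-reducing enzyme chosen after its values were seen, was the remaining rise at 1.03, from a group mean of 4.29. Its change with LY2784544 alone was 0.29 and was not called.

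HLA-DRA had opposite signs with and without GRN163L. This gene of the alpha chain of HLA-DR, which presents antigen to T cells, read 7.45 and 7.97 with GRN163L against 5.77 and 6.23 with the combination, and fell by 1.71 (SE 0.22, limma adjusted p = 0.0288). With LY2784544 alone it read 8.72 and 8.52 against 7.50 and 7.35 on the control arrays, a change of 1.20 (adjusted p = 0.0615). The interaction, the change with GRN163L present minus the change without it, was -2.91 (SE 0.31, adjusted p = 0.0442). The other probe sets of HLA-DRA gave interactions of -2.46 and -2.54, and with LY2784544 alone both were called higher. All 3 probe sets belong to 1 gene and moved alike across the arrays, so they are not separate evidence.

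A list of 14 class II presentation genes, written after HLA-DRA had been seen, had 3 falls, 0 rises and a median change of -0.31. With LY2784544 alone its median change was 0.30. The other falls were HLA-DRB3, a beta chain of HLA-DR, by 1.14 (limma adjusted p = 0.0342), and IFI30, a lysosomal thiol reductase that prepares antigens, by 1.16 (adjusted p = 0.0435). With LY2784544 alone HLA-DRB3 had a change of -0.335 and IFI30 one of 0.49, neither of them called. The HLA-DR beta genes are near-identical, so the signal of HLA-DRB3 may include others of them. CD74, the invariant chain, had a change of -0.42, and CIITA, the master activator of these genes, one of 0.02, neither of them called.

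By the interaction test 6 probe sets were called, all with a lower change in the presence of GRN163L (0.0313%). These were the 3 of HLA-DRA and 1 each of CDH12, GALNT5 and UCA1, the last 3 chosen after their values were seen. CDH12, a neuronal cadherin, read 3.68 and 3.41 on the control arrays and 6.74 and 6.83 on those with LY2784544 alone. GRN163L arrays read 3.48 and 3.47, and combination arrays 3.16 and 3.88. Of the 4 groups, LY2784544 without GRN163L was the high group, and the interaction was -3.20 (limma adjusted p = 0.0423). GALNT5, a sugar transferase that starts O-linked chains, had group means of 3.65, 6.19, 3.60 and 3.63 in the same order. UCA1, a long non-coding RNA, had group means of 4.67, 6.67, 4.25 and 4.36. In these 3 genes the rise seen with LY2784544 alone was not seen on the combination arrays.

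Of 17 alternatives that give an interaction, the HLA-DRA probe set of highest mean was called in 4. Its interaction ran from -3.165 to -2.575 and so kept its sign in all 17. With arrays left out that sign was fixed, since in neither comparison did the groups overlap. Of the other fits, only median and quantile normalization could alter the estimate. With a filter on dim probe sets, with 1 probe set a gene, with quantile normalization and without both LY2784544-exposed arrays of experiment 1, 0 probe sets were called by limma, and 341 to 768 had an unadjusted p below 0.05. Either filter removed CDH12 and GALNT5, and the stricter filter also removed UCA1, so those fits did not retest them. No probe set was called with a higher change in the presence of GRN163L, where 285 had an unadjusted p below 0.05. The smallest adjusted p of that direction among the named genes was that of VGLL3, a transcription cofactor. It read 6.93 and 6.96 on the control arrays and 5.56 and 5.76 on those with LY2784544 alone. GRN163L arrays read 7.20 and 7.30 and combination arrays 7.28 and 7.46, for an interaction of 1.41 (limma adjusted p = 0.179).

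The changes were set beside those of LY2784544 alone against control, whose mean changes come from the other 4 arrays. In that comparison 158 probe sets were called (0.824%), 107 lower and 51 higher. Of the 55 called on adding LY2784544 to GRN163L, 35 (63.6%) were called there with the same sign, which is 22.2% of the 158. Of the 107 that fell with LY2784544 alone, 102 were lower in both experiments when it was added to GRN163L, against 34.0% of all probe sets. Their median change was -1.33 alone and -0.90 on top of GRN163L. Of the 51 that rose alone, 31 were higher in both experiments, against 30.6% of all probe sets, with median changes of 1.28 and 0.26. The first of each pair of medians is from the comparison that chose the probe sets, so no test was made of their difference.

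Within experiment 1 the 2 sets of changes correlated across probe sets with r = 0.63 and rho = 0.55, and within experiment 2 with r = 0.39 and rho = 0.27. Across experiments r was 0.38 and 0.39. Arrays of the same experiment also shared deviations from their group means, with r = 0.61 between the LY2784544 and combination arrays and 0.33 between the GRN163L and combination arrays. Experiment 1 also holds the 2 arrays that were highest on the first principal component. The part of those arrays in it was not tested.

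**Figure D3:**
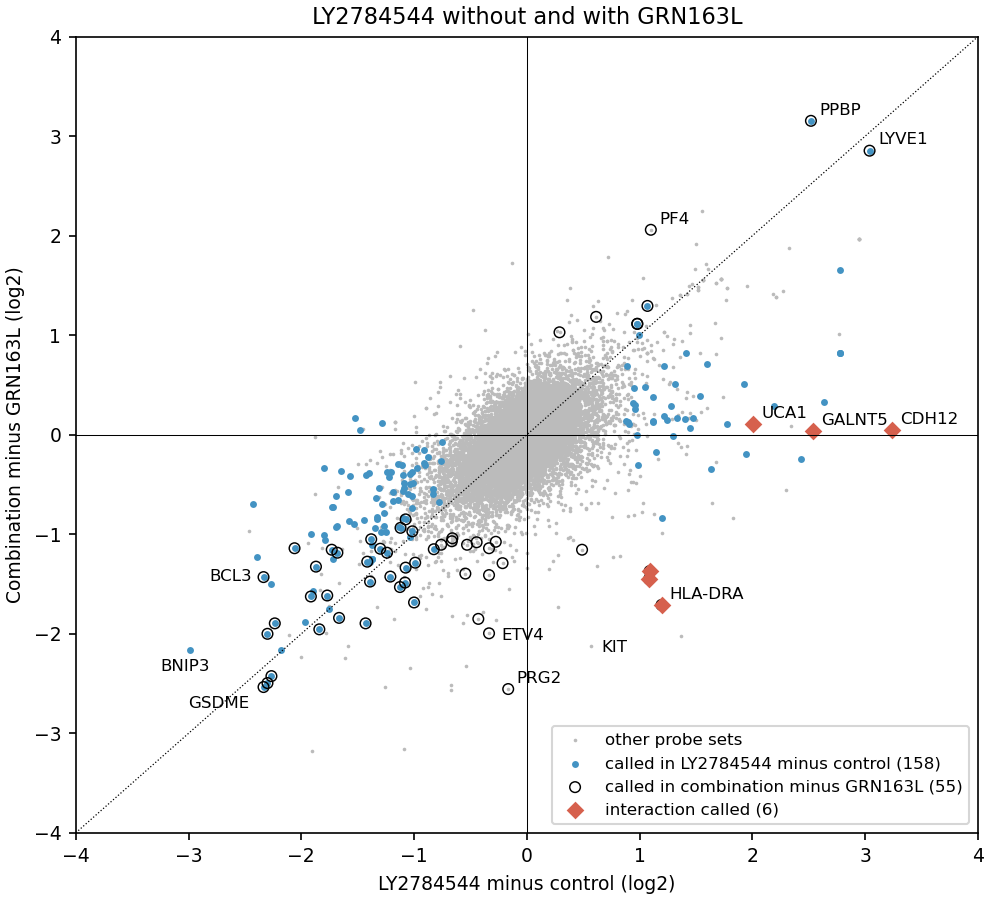
Change in log2 signal with LY2784544 alone (LY2784544 minus control, horizontal) and on top of GRN163L (combination minus GRN163L, vertical) for each 1-gene probe set, with a dotted line of equal change. PRG2 and ETV4 lie low near the vertical axis with changes of -2.56 and -2.0, and CDH12, GALNT5 and UCA1 lie far right near the horizontal axis.

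Cell cycle genes gave unlike values in the experiments. All 23 measured genes of G2 and mitosis had a lower mean with the combination. Yet their median change was -0.83 in experiment 1 and 0.02 in experiment 2. Lower in both were 8 (34.8%), close to the 34.6% of all genes. CDC20, which activates the anaphase-promoting complex, read 10.84 and 10.66 with GRN163L against 9.74 and 10.28 with the combination. MAD2L1, a spindle checkpoint protein, read 7.87 and 7.82 and then 6.40 and 7.78. The combination array of experiment 1 was the low array in both genes, and neither was called (limma adjusted p = 0.24 and 0.521). Of the 23 genes, 0 were called and 1 (4.35%) was lower at an unadjusted p below 0.05, against 8.82% of all genes.

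Replication-dependent histone genes, which cells transcribe while they copy DNA, had medians of -0.56 and 0.17 in experiments 1 and 2 over 49 genes. DNA replication genes, among them the MCM helicase subunits, had medians of -0.47 and -0.07 over 31 genes. By limma 0 genes of either list were called. At an unadjusted p below 0.05, 8 (16.3%) and 1 (3.23%) were lower, against 8.82% of all genes. Without the combination array of experiment 1, the medians of the mitosis, histone and replication lists were 0.06, 0.07 and 0.04, so their lower medians rest on that array.

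**Figure D4:**
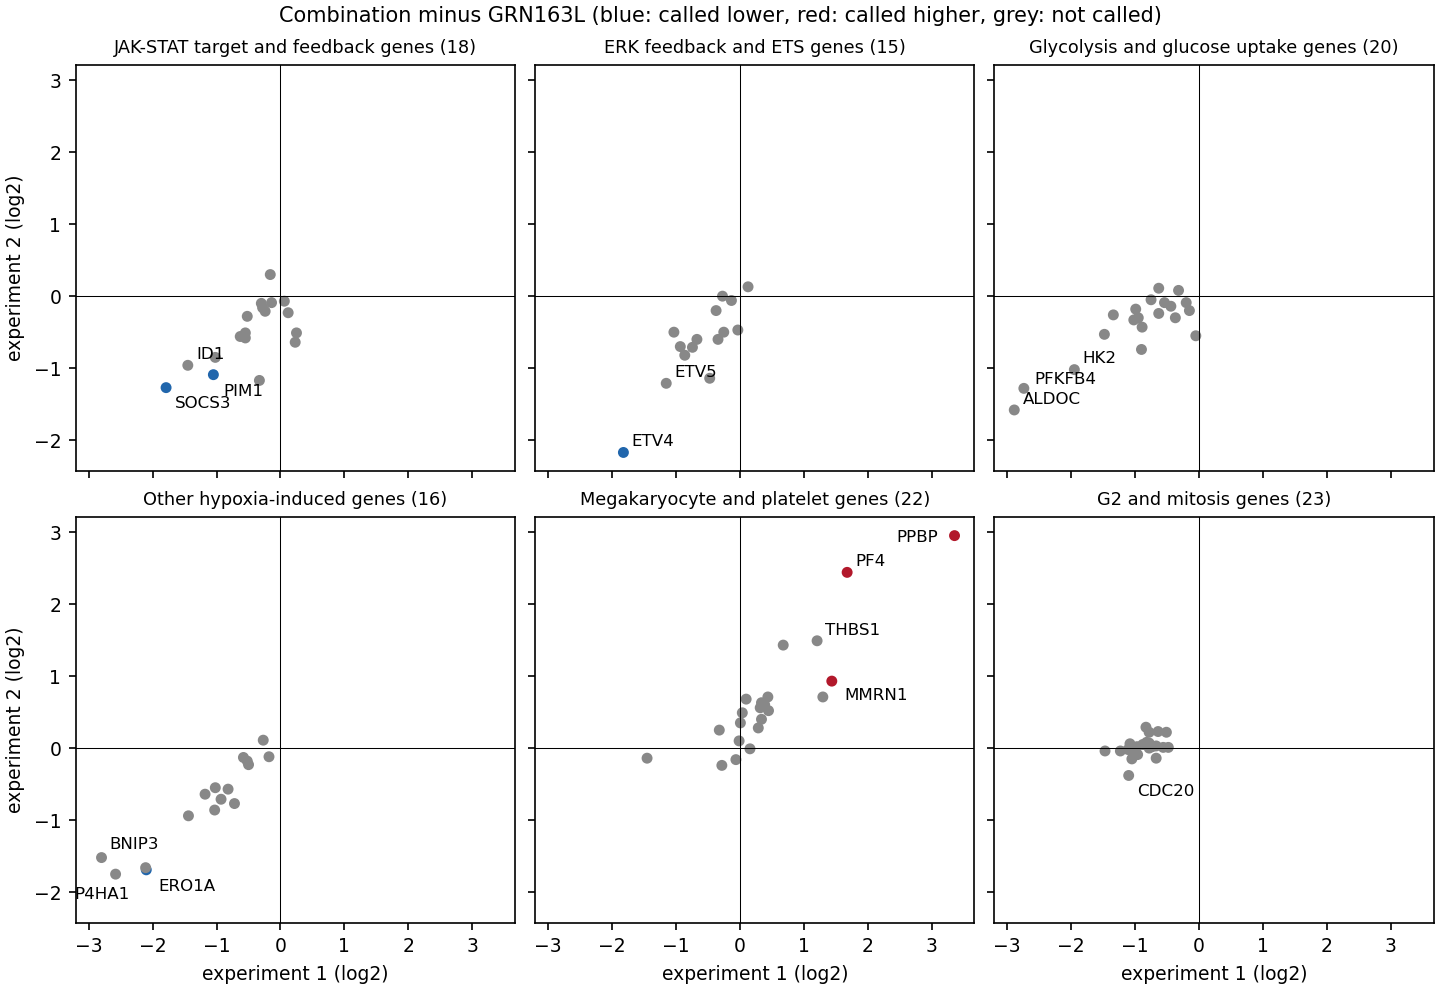
Change in log2 signal (combination minus GRN163L) of each measured gene of 6 lists in experiment 1 (horizontal) and experiment 2 (vertical), with called genes in blue (lower) or red (higher) and the number of genes in brackets. Hypoxia-induced genes spread along the diagonal, while G2 and mitosis genes lie to the left along the horizontal axis.

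Heat shock genes had a median change of -0.33 over 18 genes. Lower in both experiments were 13 (72.2%), against 34.6% of all genes. By limma 0 were called and 7 (38.9%) were lower at an unadjusted p below 0.05, against 8.82% of all genes. HSPA1A, an inducible HSP70, read 11.04 and 10.81 with GRN163L against 8.74 and 7.99 with the combination, a change of -2.56 that was not called (adjusted p = 0.189). Its control arrays read 10.72 and 8.28, a wide spread within 1 group, and with LY2784544 alone it read 9.06 and 8.59. DNAJB1, the HSP40 partner of HSP70, read 10.98 and 11.09 and then 9.48 and 9.09, with 10.78 and 9.32 on the control arrays. Its change of -1.75 was not called either (adjusted p = 0.149).

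Integrated stress response genes had a median change of -0.03 over 22 genes on adding LY2784544 to GRN163L and of 0.56 with LY2784544 alone. In the latter comparison 3 of the 22 were called higher. In the former 0 were called. At an unadjusted p below 0.05, 1 (4.55%) was higher and 3 (13.6%) lower, against 4.42% and 8.82% of all genes. The former median turned its sign, to 0.10, when the arrays were set to 1 median. TRIB3, a pseudokinase induced by this response, read 7.09 and 7.36 with GRN163L against 6.40 and 6.54 with the combination, a change of -0.76 that was not called (adjusted p = 0.21). The difference between the 2 medians was not tested.

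Cholesterol synthesis and uptake genes had a median change of -0.36 over 17 genes, and 0 were called. Lower in both experiments were 13 (76.5%), against 34.6% of all genes. At an unadjusted p below 0.05, 2 (11.8%) were lower, against 8.82% of all genes. Erythroid genes had a median of -0.11 over 17 genes and 0.02 when the arrays were set to 1 median. Among them KEL, a blood group protein, and TFRC, the transferrin receptor, had changes of 0.42 and -0.39, neither of them called. In heme synthesis and iron handling ALAS1, the housekeeping first enzyme of heme synthesis, read 9.65 and 9.42 with GRN163L against 8.90 and 8.59 with the combination. Its change of -0.79 was called with the block (adjusted p = 0.0418) and not without it (0.147).

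BCL2, the survival protein that guards mitochondria, read 5.66 and 5.63 with GRN163L against 4.73 and 4.65 with the combination. The groups did not overlap, and the change of -0.96 had an adjusted p of 0.0977 without the block and 0.0418 with it. The BCL2 family as a whole had a median change of -0.05 over 17 genes, and 0.08 with the arrays set to 1 median. CTSH, a lysosomal protease, read 7.43 and 7.54 and then 6.09 and 6.54, a change of -1.17 with an adjusted p of 0.0516 without the block and 0.0306 with it. Over 23 lysosome genes the median was -0.04, and 0.09 with the arrays set to 1 median. Respiratory chain genes had a median of -0.14 over 76 genes and cytosolic ribosomal protein genes one of -0.08 over 65, and in both lists limma called 0 genes. At an unadjusted p below 0.05, 9 (11.8%) and 6 (9.23%) were lower, close to the 8.82% of all genes.

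Of 356 olfactory receptor genes measured, limma called 0 and 26 (7.3%, against 4.42% of all genes) were higher at an unadjusted p below 0.05, with a median change of 0.14. OR2AT4 read 6.01 and 5.02 with GRN163L, then 7.68 and 7.18 with both agents, and its change of 1.92 was called with the block (adjusted p = 0.00999) and not without it (0.16). Immediate early genes had a median change of -0.24 over 13 genes, which ran from -0.52 to 0.16 with 1 array left out and was above 0 without the GRN163L array of experiment 2 (0.16) or the combination array of experiment 1 (0.04). MYC-linked ribosome biogenesis genes had one of -0.17 over 21, which was 0.002 after quantile normalization. The medians were -0.08 over 19 aminoacyl-tRNA synthetase genes and -0.11 over 16 p53 target genes, and these became 0.05 and 0.02 with the arrays set to 1 median. Monocyte and granulocyte genes had a median of 0.11 over 15 genes and fibroblast and liver genes one of 0.17 over 10. Limma called 0 genes in these 6 lists. At an unadjusted p below 0.05, the immediate early, MYC-linked, synthetase and p53 lists each held 1 lower gene (7.69%, 4.76%, 5.26% and 6.25%). The monocyte and granulocyte list held 2 lower genes (13.3%), against 8.82% of all genes. The fibroblast and liver list held 2 higher genes (20.0%, against 4.42% of all genes).

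**Figure D5:**
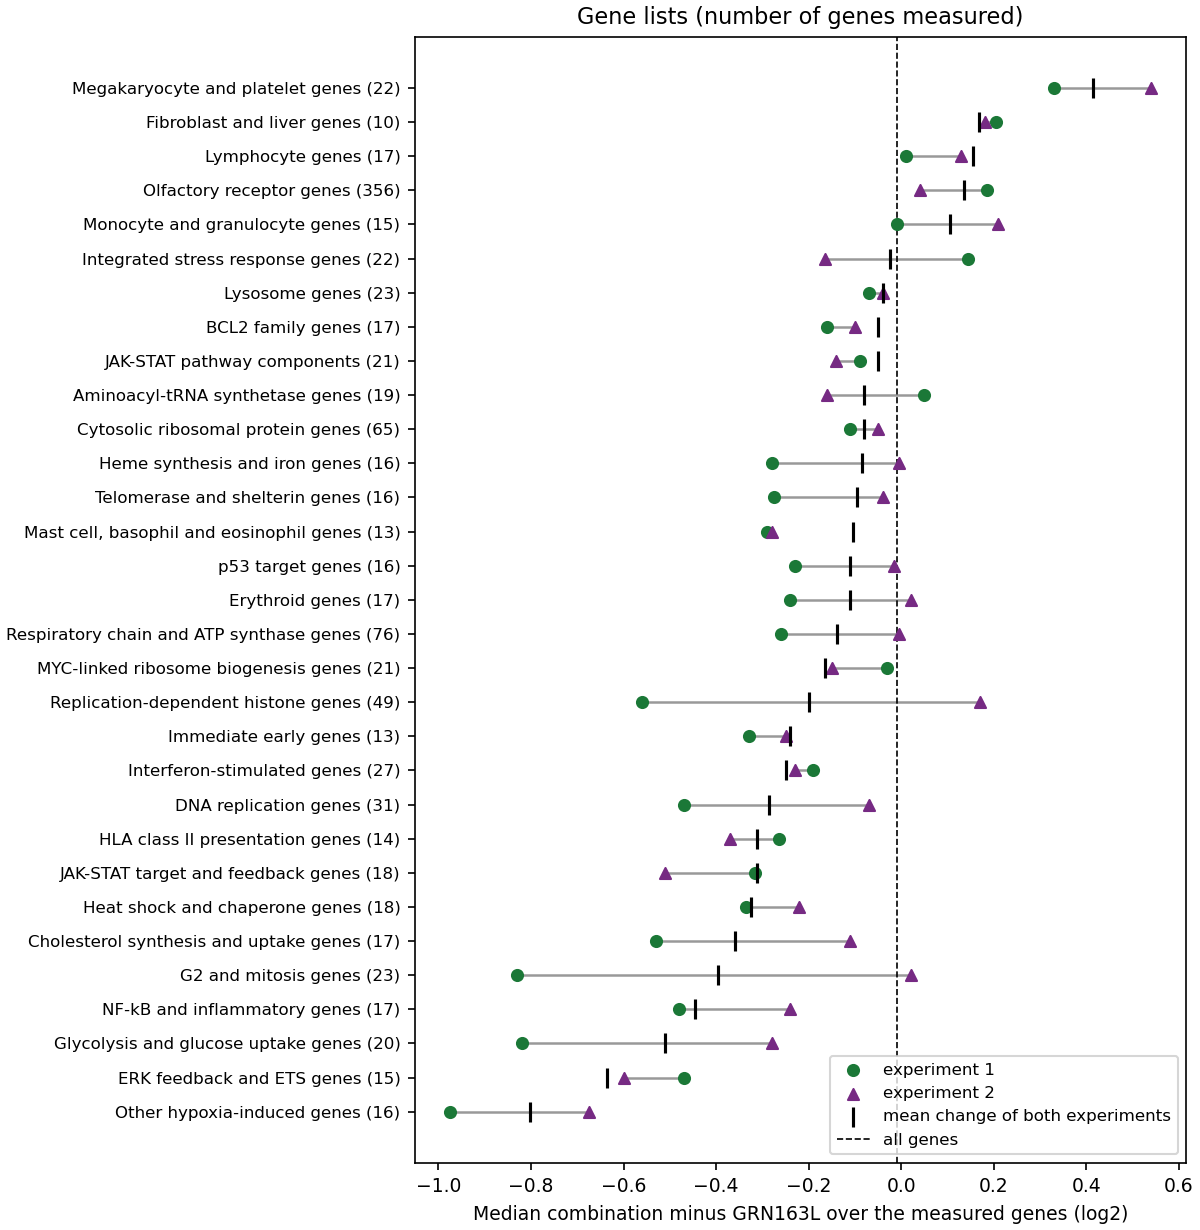
Median change in log2 signal (combination minus GRN163L) over the measured genes of each list, with circles for experiment 1, triangles for experiment 2 and a bar for the mean change of both experiments. The dashed line is the median of all genes at -0.01, and the megakaryocyte and platelet list at 0.42 and the hypoxia list at -0.80 lie at the ends.

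The targets of the agents themselves were not called. JAK2 read 10.71 and 10.72 with GRN163L against 10.89 and 10.89 with the combination, a change of 0.18 (SE 0.23, limma adjusted p = 0.769). TERT, the catalytic subunit of telomerase, read 4.87 and 4.40 and then 5.07 and 4.90, a change of 0.35 (adjusted p = 0.497). TERC read 8.94 and 8.57 and then 7.95 and 8.43, a change of -0.57 (SE 0.23, adjusted p = 0.354). Its control arrays read 9.58 and 9.26, above the 4 arrays with GRN163L. Over 16 telomerase and shelterin genes the median change was -0.10, and 0.03 with the arrays set to 1 median. By limma 0 of the 16 were called, and 4 (25%) were lower at an unadjusted p below 0.05, against 8.82% of all genes. An inhibitor of a kinase or of an enzyme's template need not change the transcript, so these levels do not measure the action of either agent.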

How the data were processed

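Total RNA (150 ng) of HEL cells was measured on 8 Affymetrix arrays. The authors deposited log2 signals made with RMA in Affymetrix Expression Console, per the submitters' processing notes. RMA subtracts background, quantile-normalizes arrays and summarises probes, so a shift of most transcripts is reduced. The program's version was not given in the sources used here, nor was a genome build, and log base 2 was taken from the range of the values. Of 33297 probe sets, 19181 named exactly 1 gene in the platform annotation, 2055 named several and 12061 were unnamed. A gene with several probe sets was represented by the probe set of highest mean. No 2 arrays had more than 2% of values equal, and the number of arrays limits the precision.

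A model of 4 group means on all 8 arrays was fitted to all 19181 probe sets with limma 3.58.1 in R 4.3.3, with Benjamini-Hochberg adjustment per contrast and a threshold of 0.05. It was tested on simulated data. Replicate numbers mark the first and second experiment in the labels and so pair the arrays. Deviations from group means correlated within an experiment with r of 0.07 to 0.61. Alternatives were the experiment as a block, filters at the 30th and 50th percentile of mean signal, 1 probe set a gene, the 2 groups alone, a mean-variance trend, robust moderation, median and quantile normalization, and leaving out each array. Leaving out both LY2784544-exposed arrays of experiment 1 was added after seeing the data. The labels name separate experiments, so p-values cover the spread between them.

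The comparison, its 30 gene lists and the added class II list were chosen with earlier results of these data known. Named genes were the 15 largest called changes in each direction with the same sign in both experiments and a group mean of at least 6, 3 per direction for the interaction, up to 4 of smallest p per list described, and JAK2, TERT and TERC. Other named genes serve as examples of a list or are said to be chosen later.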

Additional observations from a re-analysis of the deposited data

Results flagged for a closer look

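The change on adding LY2784544 differed with and without GRN163L at 6 probe sets by limma's interaction test. With 1 probe set a gene, 0 were called. The interaction was -2.91, -2.54 and -2.46 at the 3 probe sets of HLA-DRA, -3.20 at CDH12, -2.51 at GALNT5 and -1.90 at UCA1, each with an adjusted p of 0.0423 or 0.0442. At the first of these, HLA-DRA fell by 1.71 in cells that had GRN163L, and in cells that did not its change with LY2784544 was 1.20. For CDH12, GALNT5 and UCA1 the combination arrays were at the level of GRN163L alone, with changes of 0.05, 0.04 and 0.11. Across the alternatives the adjusted p of the interaction ran from 0.0157 to 0.361 for CDH12, 0.0167 to 0.309 for GALNT5 and 0.0337 to 0.354 for UCA1. Groups of 2 arrays were too small to look for single outlying arrays.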

How the results depend on the processing

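No change of a named gene on adding LY2784544 that had been called turned its sign under any of the alternatives run. This says little, since the groups of called probe sets did not overlap, so leaving out arrays could not turn a sign. Of the other fits, only median and quantile normalization altered a mean change. With the experiment as a block, limma called 181 probe sets, 27 higher and 154 lower, and 380 for LY2784544 against control. Among named genes the block changed the call of 16, each from not called to called, and of no other. Fitted on the compared groups alone, it called 5, of which 1 was higher and 4 lower, and 43 for LY2784544 against control. Leaving out 1 array in turn gave 0 to 62 calls, 0 to 10 higher and 0 to 52 lower, with 7 to 206 for LY2784544 against control and 0 to 1 for the interaction. A lone array in a group was then assumed to vary like the other groups. Without both LY2784544-exposed arrays of experiment 1, 0 were called (smallest adjusted p 0.0532, 1631 at an unadjusted p below 0.05), with 78 for LY2784544 against control and 0 for the interaction. The interaction also gave 0 calls with either filter, with 1 probe set a gene and with quantile normalization (485, 341, 686 and 768 at an unadjusted p below 0.05). CDH12 and GALNT5 had mean signals of 4.33 and 4.27, under the 30th percentile of 4.38, so both filters removed them. UCA1 was removed by the stricter filter. The filters therefore did not retest these genes. The stricter filter gave 67 calls for LY2784544 against control. The share of calls that were higher was 14.5% as tested, 26.7% (12 higher, 33 lower) with median normalization, 23.8% (10 higher, 32 lower) with quantile normalization and 52.6% (10 higher, 9 lower) without the combination array of experiment 2. The cause of these differences was not tested, beyond the fewer probe sets, arrays or groups in each fit. With 2 arrays a group, small changes could not be told from the spread, and dim probe sets near background carry compressed changes.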
